A study of Mus musculus with 6 samples.

Results

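The transcripts of the mitochondrial genome were examined in adult mouse brain with and without the RNA editing activity of ADAR1. They were taken as every gene of the count table whose symbol starts with mt-, which gave 37 of 37310 genes, all of them on the mitochondrial chromosome. They comprise 13 protein-coding genes, 2 ribosomal RNA (rRNA) genes and 22 transfer RNA (tRNA) genes. RNA sequencing was performed on ribosome-depleted RNA from whole brain of 12-week-old male C57BL/6 mice, with 3 independent animals and 1 library each per genotype. One genotype was *Adar1* E861A/E861A *Ifih1*-/- (E861A), in which a point mutation of the deaminase domain removes editing by ADAR1. The authors reported that editing of known sites in brain was largely kept in this genotype, where ADAR2 is also expressed. The other was *Adar1*+/+ *Ifih1*-/- (WT), and so both genotypes lacked *Ifih1*, which encodes the RNA sensor MDA5, in every cell. The comparison addressed whether loss of editing by ADAR1 alters brain transcripts where MDA5 is absent.

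The mitochondrial genome is a circular DNA that is transcribed from both strands as long precursor RNAs. The tRNAs lie between the mRNAs and rRNAs, and their excision releases the RNAs on either side. The mRNAs encode core subunits of the respiratory chain complexes I, III and IV and of the ATP synthase (complex V), and the remaining subunits of these complexes are encoded in the nucleus and imported. The rRNAs form the mitochondrial ribosome. Transcripts of the opposing strands can pair, and such paired RNA is degraded inside mitochondria by the helicase SUPV3L1 and the exonuclease PNPT1. When it escapes to the cytosol it is a known ligand of MDA5. Neurons depend on respiration, and mitochondrial transcripts are abundant in brain.

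The libraries held 26853488 to 38076753 counts. *Adar*, the symbol under which *Adar1* is listed, ranged from 116 to 172 CPM (counts scaled by the library total) and *Ifih1* from 1.1 to 1.63 CPM, and these levels do not check the genotypes. Markers of neurons (6 of 6), astrocytes (5 of 5) and oligodendrocytes (6 of 6) had counts in every library. E861A replicate 1 stood apart by its pituitary markers. Over the 5 matched of 6 listed genes they summed to 430 TMM-scaled CPM, against 1.28 to 3.35 in the other libraries. Values without E861A replicate 1 are given beside the results that it moved most.

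Of the 37 mitochondrial genes, 12 had at least 2 CPM in all 3 libraries of a genotype and were tested, and 30 had a count in at least 1 library. The genes fell far apart in count. Both rRNA genes and 7 protein-coding genes had at least 30325 counts in every library, and these 9 genes were among the 50 genes with the most counts. *mt-Rnr2* had the most counts of any gene in the table. The other 6 protein-coding genes had at most 19 counts in any library. These were *mt-Co2* and *mt-Co3* (complex IV), *mt-Atp6* and *mt-Atp8* (complex V), and *mt-Nd3* and *mt-Nd4l* (complex I).

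The 6 genes with few counts are neighbours. Each lies wholly within bases 6390 to 11042 of the mitochondrial genome (16299 bases, NCBIM37), a stretch that also stands in nuclear DNA at chr1:24618374-24623027 on the minus strand. Over 4654 aligned bases the sequences were 99.936% identical, with 2 substitutions and 1 gap. In all, 11 mitochondrial genes lie wholly inside this stretch, the 6 protein-coding genes and 5 tRNA genes, and none had more than 19 counts in any library. The start of *mt-Co2* is shown because it cannot be told from its nuclear copy. The first line is chrM:7013-7087, plus strand, and the second is chr1:24622330-24622404, minus strand.
mt-Co2 first 75 bases: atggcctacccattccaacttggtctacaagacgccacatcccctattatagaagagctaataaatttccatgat
chromosome 1 copy of the mt-Co2 start: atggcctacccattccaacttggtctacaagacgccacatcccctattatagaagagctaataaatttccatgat

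Only *mt-Nd3* among the 6 contains a substitution relative to the copy. It is T9461C, where the number is the position on the mitochondrial genome, the first letter is the base there and the last letter is the base of the copy. The sequences around it are shown with the differing base in capitals. They are chrM:9431-9491 on the plus strand, which spans the end of *mt-Tg* and the start of *mt-Nd3*, and chr1:24619926-24619986 on the minus strand.
mt-Nd3 start in mitochondrial DNA: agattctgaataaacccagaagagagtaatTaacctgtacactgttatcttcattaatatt
chromosome 1 copy of the mt-Nd3 start: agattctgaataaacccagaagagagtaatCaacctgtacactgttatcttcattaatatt

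The authors counted reads with STAR, whose gene counts keep only reads with a single best place in the genome. Every 75-base window of each gene, the length of 1 read, was therefore searched for a second exact copy. For *mt-Co2*, *mt-Co3*, *mt-Atp6*, *mt-Atp8* and *mt-Nd4l* 0% of the windows were unique. For *mt-Nd3* 1.09% were unique, and it had the most counts of the 6, with 9, 19 and 8 in E861A and 11, 11 and 12 in WT. The share was 38.5% for *mt-Nd4* and 60.2% for *mt-Co1*, which lie across the ends of the stretch. It was 94.3% for *mt-Nd2*, 97.1% for *mt-Rnr2*, 98.3% for *mt-Nd5* and 100% for *mt-Rnr1*, *mt-Nd1*, *mt-Nd6* and *mt-Cytb*. The genes annotated in the chromosome 1 copy had few counts as well, with 17 to 31 for *Gm10925* and 3 to 14 for *Gm10222*. A further copy, at chr2:22442808-22446054 on the minus strand, matched mitochondrial DNA from *mt-Nd2* to *mt-Co2* over 3260 aligned bases at 97.362% identity, and its 3 annotated pseudogenes had 10 to 49 counts. The counts of the 6 genes are therefore not read as their RNA level, and neither subunit of complex V that mitochondria encode could be compared.

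**Figure D1:**
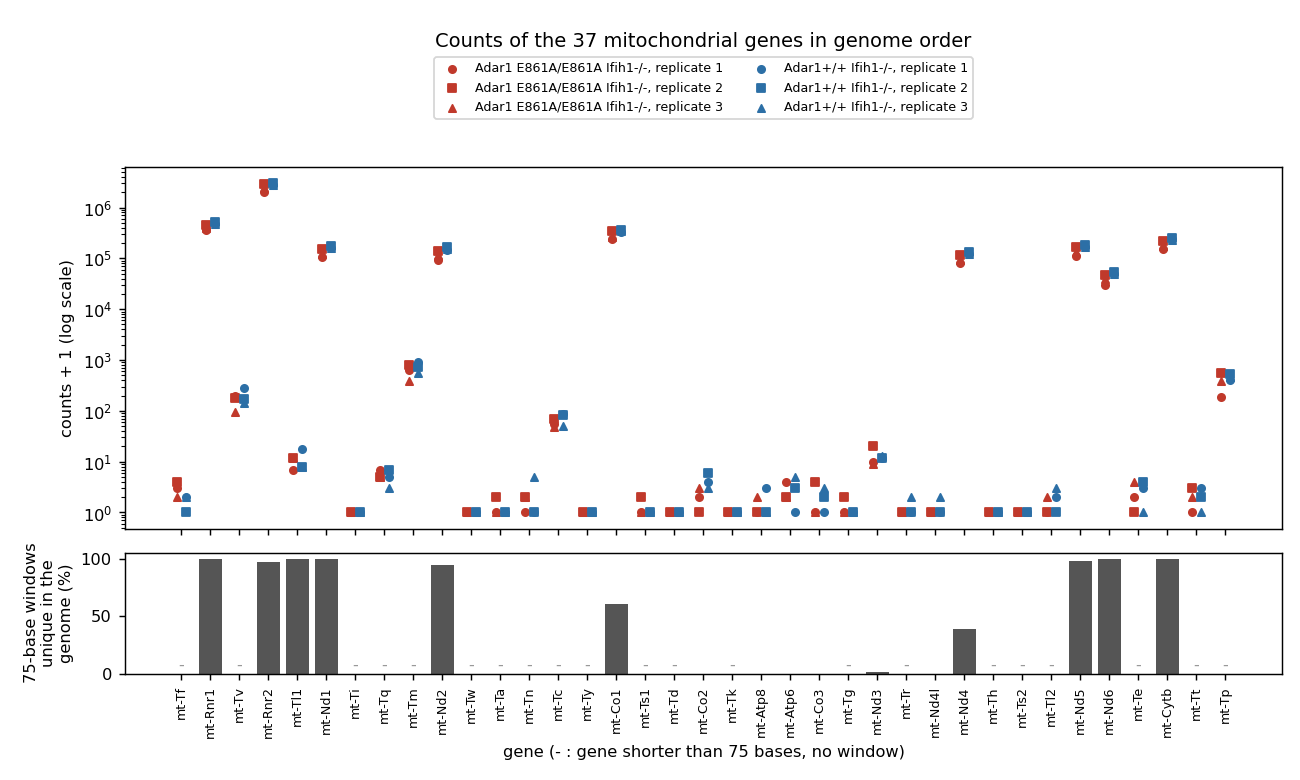
Counts plus 1 (log axis) of the 37 mitochondrial genes in genome order, with 1 point per library (red, E861A; blue, WT), above the percentage of 75-base windows of each gene that occur once in the genome. The 9 rRNA and protein-coding genes with 38.5% to 100% unique windows have at least 30325 counts in every library, and the 6 protein-coding genes with 0% to 1.09% unique windows have at most 19.

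The rRNAs and mRNAs were next placed in order of level per length, as CPM per kilobase of the annotated gene over all 6 libraries. *mt-Rnr2* (ENSMUSG00000064339, chrM:1094-2675), the large-subunit rRNA, stood highest at 49460 ± 3849 (SD, n = 6). *mt-Rnr1* (ENSMUSG00000064337, chrM:70-1024), the small-subunit rRNA, followed at 13966 ± 845. Both rRNA levels were measured after a step that removes ribosomal RNA, so they do not give the level before it. Among mRNAs, *mt-Co1* (ENSMUSG00000064351, chrM:5328-6872), the catalytic subunit of complex IV, had 6009 ± 366 CPM per kilobase. *mt-Cytb* (ENSMUSG00000064370, chrM:14145-15288), the cytochrome b of complex III, had 5487 ± 434. The remaining 5 encode complex I subunits. *mt-Nd1* (ENSMUSG00000064341, chrM:2751-3707) had 4524 ± 382 CPM per kilobase and *mt-Nd2* (ENSMUSG00000064345, chrM:3914-4951) had 3830 ± 416. *mt-Nd6* (ENSMUSG00000064368, chrM:13552-14070), which is read from the light strand unlike the other protein-coding genes, had 2566 ± 289. *mt-Nd5* (ENSMUSG00000064367, chrM:11742-13565) had 2546 ± 209 and *mt-Nd4* (ENSMUSG00000064363, chrM:10167-11544) had 2379 ± 172.

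Within a library the order was steady. Each gene stood above the next in 6 of 6 libraries, except that *mt-Nd6* stood above *mt-Nd5* in 4 of 6. Across libraries the ranges of neighbours overlapped from *mt-Co1* down to *mt-Nd2* and from *mt-Nd6* down to *mt-Nd4*. The order depended on which bases were counted as length. Per kilobase of unique 75-base windows, a length chosen after seeing the data, *mt-Nd4* moved from the lowest of the 9 to the second of the mRNAs, at 6530 ± 473 CPM per kilobase, and *mt-Co1* rose to 10489 ± 639. With 150-base windows, the length of a read pair without a gap, *mt-Nd4* stood again at 6530 and *mt-Co1* at 8708 ± 531, and the order of the 9 genes was that of the 75-base windows.

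**Figure D2:**
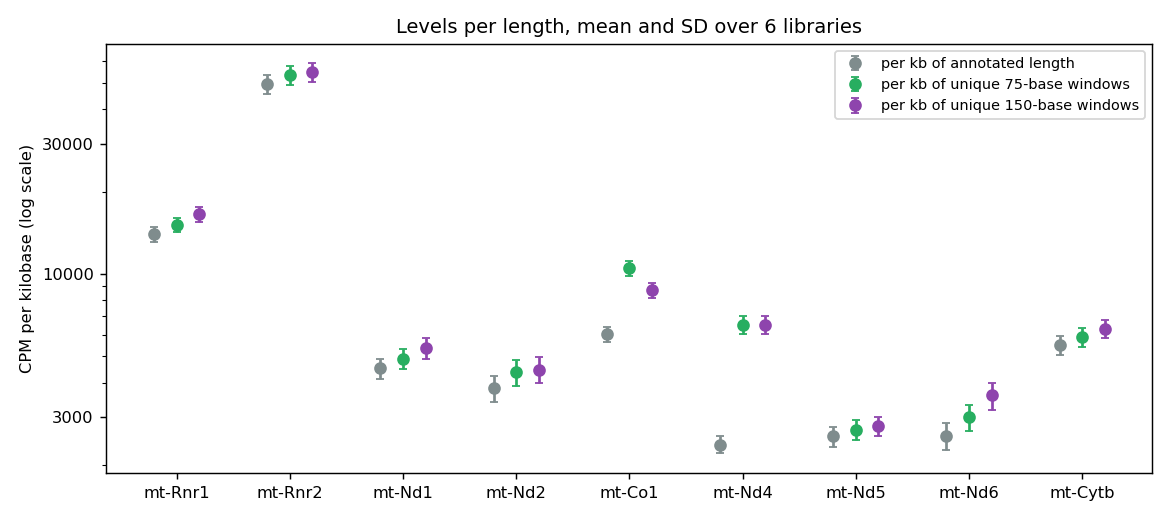
Level of the 9 well-counted mitochondrial genes as CPM per kilobase (log axis), mean and SD over 6 libraries, by annotated length (grey), unique 75-base windows (green) and unique 150-base windows (purple). *mt-Nd4* goes from 2379 per kilobase of annotated length to 6530 per kilobase of unique windows, and *mt-Co1* from 6009 to 10489 or 8708.

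The share of counts taken by mitochondrial genes overlapped between genotypes. It was 11.0%, 12.5% and 13.8% in E861A replicates 1 to 3 and 12.3%, 12.7% and 12.5% in WT replicates 1 to 3. The E861A libraries included both the lowest and the highest share, and all 3 WT libraries lay between them. The means were 12.45% ± 1.39 (SD, n = 3) in E861A and 12.5% ± 0.231 in WT, a difference of -0.0492 percentage points with a standard error of 0.811 (exact two-sided permutation test, p = 1). With 3 animals per genotype this test cannot give a p-value below 0.1. The difference was 0.663 points without E861A replicate 1 and -0.721 points without E861A replicate 3. The 95% Wilson intervals of the shares were at most 0.0261 points wide and cover counting error only. In bulk tissue, fewer cells of a type and less RNA per cell cannot be told apart.

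By class, mitochondrial mRNAs took 2.82%, 3.27% and 3.49% of counts in E861A and 3.35%, 3.51% and 3.44% in WT (difference -0.239 points, SE 0.203, exact permutation p = 0.3). The rRNAs took 8.2%, 9.25% and 10.3% in E861A and 8.92%, 9.23% and 9.04% in WT (difference 0.189 points, SE 0.612, exact permutation p = 0.7). The genotypes overlapped in both classes, and E861A replicate 1 was the lowest library in each. Without it the difference was -0.0508 points for mRNAs and 0.714 for rRNAs, and without E861A replicate 3 it was -0.386 and -0.335 points. Mitochondrial tRNAs took 0.00349% to 0.00443% of counts in E861A and 0.00339% to 0.00471% in WT.

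**Figure D3:**
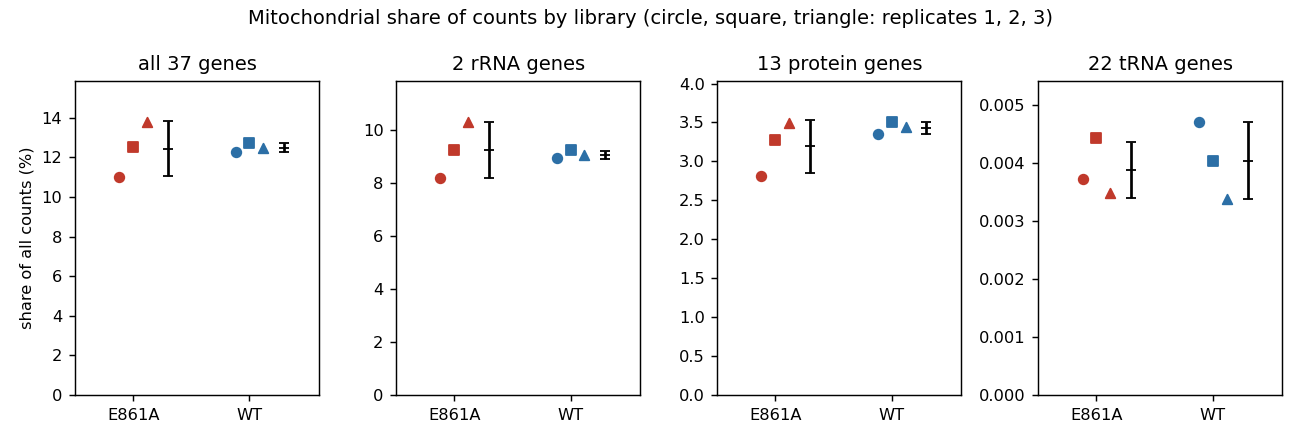
Share of all counts (%) taken by the 37 mitochondrial genes and by each class, with 1 point per library and the mean and SD of 3 libraries per genotype in black. The 3 E861A libraries span 11.0% to 13.8% for all 37 genes and the 3 WT libraries 12.3% to 12.7%.

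No mitochondrial gene was called different between genotypes. Counts were compared with the edgeR quasi-likelihood test over all 13649 genes that passed the CPM filter, and a gene was called at a Benjamini-Hochberg adjusted p under 0.05. Of the 12 mitochondrial genes tested, 0 were called, where 0.506% of all genes tested were. At an unadjusted p under 0.05, 0 of the 12 passed in edgeR, where 9.01% of all genes did, and 1 (*mt-Cytb*) in DESeq2, where 6.44% did. With replicate number as a block in edgeR 3 passed (*mt-Nd2*, *mt-Nd6* and *mt-Cytb*), where 15.2% of all genes did. After adjustment 0 of the 12 were called by DESeq2 or with the block, where 0.601% and 1.16% of all genes were. The smallest adjusted p of the 12 was 0.598 without the block and 0.221 with it.

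All 7 mRNAs tested had a lower fitted level in E861A, none of which passed the test, and 50.5% of all genes tested had a negative log2 fold change. Their median log2 fold change was -0.11 against -0.001 over all genes tested. This rested in part on E861A replicate 1. Its 7 mRNAs stood at 0.736 to 0.843 of the WT mean, whereas those of E861A replicate 2 stood at 0.934 to 0.999 and those of replicate 3 at 0.977 to 1.06. Without E861A replicate 1, 5 of the 7 were lower and the median was -0.015.

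*mt-Cytb* was the only one of the 12 whose genotypes did not overlap. It had 5232, 6243 and 6438 TMM-scaled CPM in E861A and 6449, 6827 and 6498 in WT. The highest E861A library was thus just under the lowest WT library, and the log2 fold change was -0.14 (SE 0.075, adjusted p = 0.598). Without E861A replicate 1 it was -0.0584 (edgeR adjusted p = 0.799). Among all genes tested, 14.2% had genotypes that did not overlap and 6.66% did so with E861A lower, so 1 of 12 is close to the background.

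The 5 complex I mRNAs overlapped between genotypes. *mt-Nd2* had 3110, 3907 and 4308 TMM-scaled CPM in E861A and 3935, 4374 and 4242 in WT. Its fitted log2 fold change was -0.15 (SE 0.094, adjusted p = 0.672), and -0.029 without E861A replicate 1. *mt-Nd6*, the light-strand gene, had 1030, 1306 and 1469 CPM in E861A and 1366, 1467 and 1362 in WT (log2 fold change -0.14, SE 0.094, adjusted p = 0.69), and its log2 fold change was -0.0145 without E861A replicate 1. In both genes E861A replicate 1 was the lowest of the 6 libraries and E861A replicate 3 lay within or above the WT range. The log2 fold changes of *mt-Nd1*, *mt-Nd4* and *mt-Nd5* were -0.11, -0.1 and -0.061, with adjusted p of 0.719, 0.72 and 0.864. *mt-Co1* of complex IV had 8001, 9483 and 9766 CPM in E861A and 9203, 9767 and 9514 in WT, and its log2 fold change was -0.064 (SE 0.076, adjusted p = 0.837).

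The rRNAs overlapped between genotypes as well. *mt-Rnr2* had 68210, 80757 and 89180 TMM-scaled CPM in E861A and 75110, 79922 and 76661 in WT (log2 fold change 0.04, SE 0.099, adjusted p = 0.934). *mt-Rnr1* had 12204, 12825 and 14878 CPM in E861A and 12978, 13707 and 13467 in WT (log2 fold change -0.0089, SE 0.077, adjusted p = 0.985). For both, E861A held the lowest and the highest library.

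**Figure D4:**
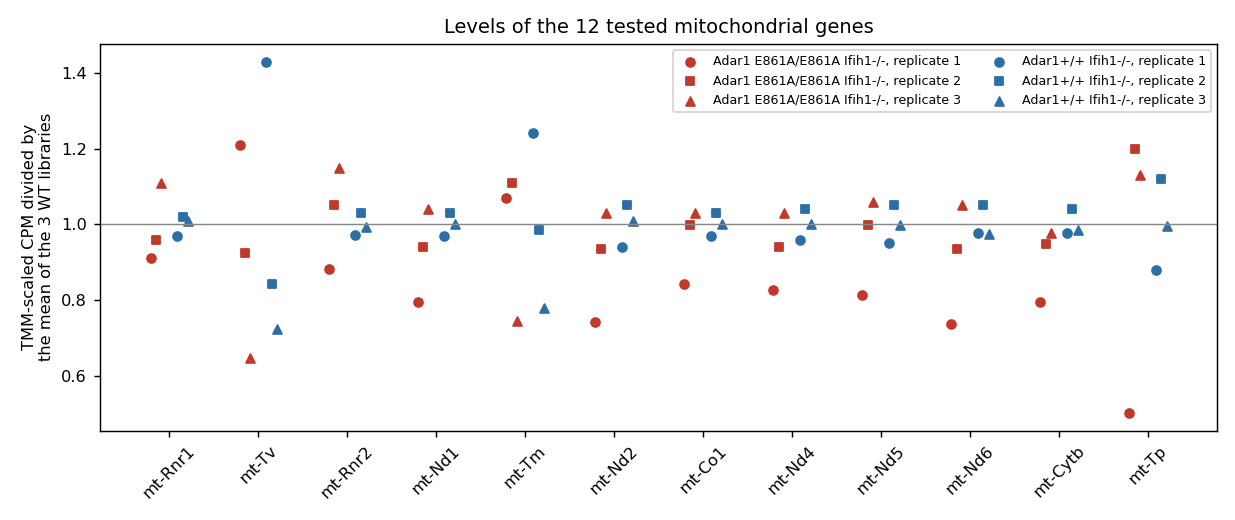
TMM-scaled CPM of the 12 tested mitochondrial genes divided by the mean of the 3 WT libraries, with 1 point per library (red, E861A; blue, WT; circle, square and triangle, replicates 1 to 3). The mRNAs of E861A replicate 1 lie at 0.736 to 0.843, and only *mt-Cytb* has no overlap between genotypes.

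The composition of the mitochondrial counts separated the genotypes, where their summed share had not. The mRNAs made up 25.6%, 26.1% and 25.3% of mitochondrial counts in E861A and 27.3%, 27.5% and 27.5% in WT, without overlap. The rRNAs made up 74.4%, 73.8% and 74.7% in E861A and 72.7%, 72.4% and 72.4% in WT. Their mean share was 1.8 percentage points higher in E861A (SE 0.263), in 3 of 3 same-numbered pairs, and the exact permutation p of 0.1 is the smallest this design allows. Adjusted over the 22 library measures compared it was 0.367, and with the libraries paired by number the exact sign-flip p was 0.25, also the smallest possible. The difference did not pass either test. Leaving out any 1 library gave 1.61 to 2.04 points.

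Of the rRNAs, *mt-Rnr2* separated the genotypes and *mt-Rnr1* did not. *mt-Rnr2* took 63.1%, 63.7% and 64.0% of mitochondrial counts in E861A and 62.0%, 61.8% and 61.6% in WT. *mt-Rnr1* took 11.3%, 10.1% and 10.7% in E861A and 10.7%, 10.6% and 10.8% in WT, with overlap. The log2 ratio of mRNA to rRNA counts, chosen after these shares were seen, was lower in E861A by a mean difference of -0.13 (SE 0.02, exact permutation p = 0.1). It was -0.14 against *mt-Rnr2* alone, without overlap, and -0.094 against *mt-Rnr1* alone, with overlap (exact permutation p = 0.3). The log2 ratio of *mt-Rnr1* to *mt-Rnr2* differed by -0.045 (SE 0.051, exact permutation p = 0.5), so the rRNAs were not shown to differ from each other.

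Because these RNAs passed through rRNA depletion, the nuclear genes annotated as rRNA are given beside them. Of 332 such genes, 165 had counts. Together they came to 36.8, 27.5 and 34.9 CPM in E861A and 33.5, 27 and 33.8 in WT, with overlap. Only reads with a single best place are counted, so these values do not measure all nuclear rRNA that remained. The part of depletion in the result was not tested. Marker sums of 4 cell types did not overlap between genotypes either, where 14.2% of all single genes tested did not. No marker of these 4 cell types was called without the replicate block. Neuron markers (6 genes) summed to 3938 to 4066 TMM-scaled CPM in E861A and 4073 to 4126 in WT, astrocyte markers (5 genes) to 4867 to 5194 and 4238 to 4567, endothelial markers (5 genes) to 96.0 to 119 and 124 to 147, and choroid plexus markers (5 genes) to 202 to 313 and 371 to 382. Of the choroid plexus markers 3 had a negative and 2 a positive log2 fold change, all 5 endothelial markers a negative one, all 5 astrocyte markers a positive one, and 5 of the 6 neuron markers a negative one. All of these markers had counts in every library, and their part in the composition was not tested. Sums for oligodendrocytes, microglia, blood and skeletal muscle overlapped.

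Among the mRNAs, complex III (*mt-Cytb*) made up 18.95%, 18.85% and 18.28% of protein-coding mitochondrial counts in E861A and 19.49%, 19.19% and 18.96% in WT. The genotypes did not overlap, by a margin smaller than the spread within either, and the difference was -0.523 points (SE 0.259, exact permutation p = 0.1, adjusted 0.367). Without E861A replicate 3 it was -0.316 points (exact permutation p = 0.2). The shares of complex I (difference -0.243 points, exact permutation p = 0.8) and of complex IV, which rested on *mt-Co1* (difference 0.766 points, exact permutation p = 0.3), overlapped.

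**Figure D5:**
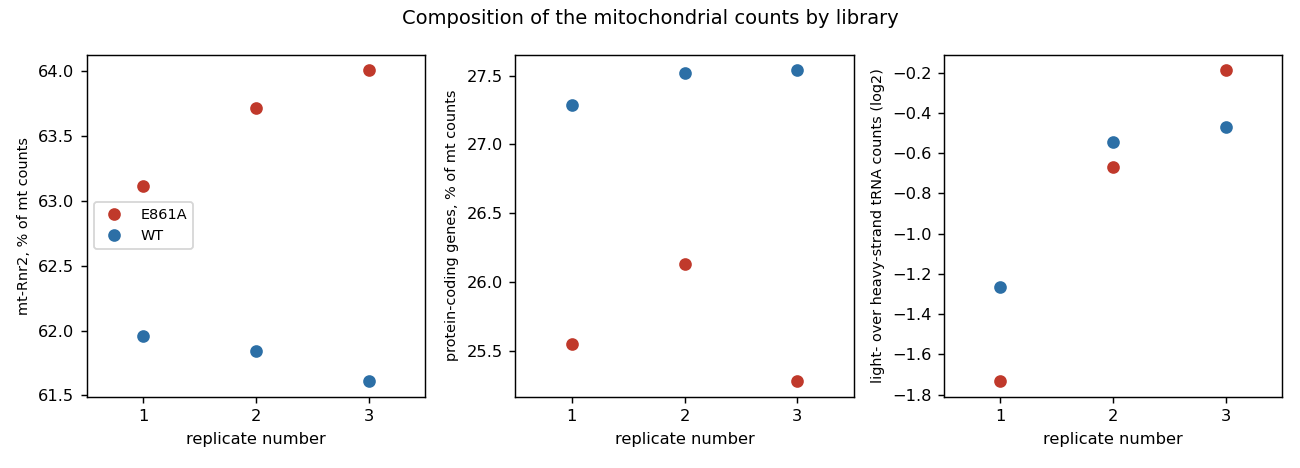
Share of mitochondrial counts (%) in *mt-Rnr2* (left) and in the protein-coding genes (middle), and log2 ratio of light-strand to heavy-strand tRNA counts (right), by replicate number (red, E861A; blue, WT). The 3 E861A libraries lie above 63% and the 3 WT libraries at or below 62.0% in the left panel, and the replicate 1 library of each genotype has its lowest tRNA ratio in the right panel.

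Both strands were then compared. The ratio of *mt-Nd6*, the light-strand mRNA, to the heavy-strand protein-coding genes was 0.0387, 0.0411 and 0.0435 in E861A and 0.0431, 0.043 and 0.0414 in WT. The genotypes overlapped, with a difference of -0.05 on the log2 scale (SE 0.052, exact permutation p = 0.6). Which strand column of the STAR output was deposited is not given in the sources used here, so a count assigned to one strand may include RNA of the other.

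The tRNA genes are 59 to 75 bases long, 21 of the 22 shorter than a read, and 8 are on the light strand and 14 on the heavy strand. Only 4 of them had more than 40 counts in every library, and these held 98.5% of all mitochondrial tRNA counts. They are shown as the RNA strand of the reference, since their counts carry the tRNA values. *mt-Tv* (valine) is chrM:1025-1093 and *mt-Tm* (methionine) chrM:3845-3913, both on the plus strand, while *mt-Tc* (cysteine) is chrM:5192-5257 and *mt-Tp* (proline) chrM:15356-15422, both on the minus strand.
mt-Tv: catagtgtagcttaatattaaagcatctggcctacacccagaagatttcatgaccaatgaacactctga
mt-Tm: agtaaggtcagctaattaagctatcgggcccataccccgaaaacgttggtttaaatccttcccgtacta
mt-Tc: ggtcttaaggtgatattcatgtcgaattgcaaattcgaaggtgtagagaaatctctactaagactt
mt-Tp: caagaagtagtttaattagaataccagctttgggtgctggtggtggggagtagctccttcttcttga

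*mt-Tv*, *mt-Tm* and *mt-Tp* passed the CPM filter, and all 3 overlapped between genotypes. *mt-Tm* had 21.3, 22.1 and 14.7 TMM-scaled CPM in E861A and 24.5, 19.5 and 15.4 in WT (log2 fold change -0.025, SE 0.15, adjusted p = 0.977). *mt-Tv* had 6.55, 4.99 and 3.5 CPM in E861A and 7.75, 4.56 and 3.91 in WT (log2 fold change -0.1, SE 0.24, adjusted p = 0.926). *mt-Tp* had 6.35, 15.2 and 14.4 CPM in E861A and 11.2, 14.2 and 12.6 in WT (log2 fold change -0.076, SE 0.22, adjusted p = 0.943). Same-numbered libraries resembled each other in these tRNAs. In each genotype replicate 1 was the highest for *mt-Tv* and the lowest for *mt-Tp*, and the light-strand to heavy-strand tRNA ratio was 0.301, 0.629 and 0.878 in E861A and 0.416, 0.686 and 0.721 in WT. The genotypes overlapped in this ratio (log2 difference -0.1, SE 0.52, exact permutation p = 0.8, and 0.33 without E861A replicate 1), and what same-numbered animals share is not stated.

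*mt-Tc* had 48 to 86 counts and did not pass the filter. The other 18 tRNA genes had at most 17 counts in any library, and *mt-Tl1* had the most of them, with 6 to 17. *mt-Ti*, *mt-Tw*, *mt-Ty*, *mt-Td*, *mt-Tk*, *mt-Th* and *mt-Ts2* were at 0 in every library. For a gene whose reads can be counted, that allows up to 3 counts, or 0.0788 to 0.112 CPM depending on the library. It does not bound *mt-Td* and *mt-Tk*, which lie within the stretch copied on chromosome 1. Nor does it bound *mt-Th*, which lies within 129 bases found unchanged at chr2:69193595-69193723. Reads that overlap a second gene are not counted. A read of 75 bases over *mt-Ts2* always meets another gene, since only 58 bases there are free of other genes. If counting was not by strand, the same holds for *mt-Ti*, *mt-Tw* and *mt-Ty*, with 64, 66 and 70 free bases. In those cases a 0 is not a bound either. If counting was by strand, 14 of the tRNA genes have at least 75 bases that no other gene takes up, and 10 of these had at most 6 counts in any library. If it was not, only 4 have such room (*mt-Tl1*, *mt-Tn*, *mt-Tc* and *mt-Tp*), and 1 of these, *mt-Tn*, had at most 6 counts. Differences between genotypes in these tRNAs were not detectable at these counts.

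Mitochondrial mRNAs were next set against the nuclear genes for subunits of the same complexes. For complexes I, III and IV together (55 nuclear genes), a set chosen after seeing the data because the complex V mRNAs had almost no counts, their ratio in counts was 9.66, 10.8 and 11.9 in E861A and 10.9, 11.2 and 11.4 in WT. The genotypes overlapped (log2 difference -0.057, SE 0.09, exact permutation p = 0.7), and the log2 difference was 0.02 without E861A replicate 1. With the nuclear subunits of complex V added to the denominator it was -0.053 (exact permutation p = 0.7). The log2 differences were -0.067 for complex I, -0.11 for complex III and -0.0045 for complex IV, with exact permutation p of 0.6, 0.4 and 0.9. In the 3 complexes E861A replicate 1 had the lowest ratio of all libraries.

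The nuclear subunit genes showed no call either. Of 70 genes listed and tested, 0 were called and 9 had an unadjusted p under 0.05, where 0.506% and 9.01% of all genes did. A negative log2 fold change was found for 58 and a positive one for 12, where 50.5% and 49.5% of all genes had them, and the median was -0.045 against -0.001 over all genes tested. These counts by sign and this median were not repeated without E861A replicate 1. The smallest adjusted p was 0.238, for *Atp5k*, which encodes the e subunit of the ATP synthase. It had 40.57, 45.27 and 41.97 TMM-scaled CPM in E861A and 48.41, 50.01 and 47.93 in WT (log2 fold change -0.19, SE 0.054). In the other complexes the smallest adjusted p belonged to *Ndufb10* of complex I (-0.15, adjusted p = 0.371), *Cyc1* of complex III (-0.12, adjusted p = 0.55) and *Cox6b1* of complex IV (-0.14, adjusted p = 0.447), where the first value is the log2 fold change.

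Nuclear factors of mitochondrial gene expression were tested as a list of 62, of which 61 passed the filter. Besides genes that make, process or modify mitochondrial RNA, the list held 7 nuclear regulators and some genes of mitochondrial DNA copying, such as *Polg*. Of these, 0 were called and 3 had an unadjusted p under 0.05, against the same 0.506% and 9.01% of all genes. The log2 fold change was positive for 37 and negative for 24, and the median was 0.022. *Polrmt*, the mitochondrial RNA polymerase, had 19.2, 16.7 and 15.0 TMM-scaled CPM in E861A and 18.3, 17.9 and 18.1 in WT (log2 fold change -0.092, SE 0.081, adjusted p = 0.77). *Tfam*, which packages mitochondrial DNA and activates its promoters, had a log2 fold change of 0.03 (adjusted p = 0.908). *Tfb2m*, the initiation factor, had 11.5, 10.3 and 10.9 CPM in E861A and 9.69, 9.38 and 9.55 in WT. Its genotypes did not overlap, and the log2 fold change of 0.19 (SE 0.082) did not pass the test (adjusted p = 0.524).

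Of the genes that stabilise or degrade mitochondrial RNA, *Lrpprc* and *Slirp*, which bind mRNAs together as a complex, had log2 fold changes of 0.054 (adjusted p = 0.769) and 0.18 (adjusted p = 0.563). *Slirp* had 12.7, 11.6 and 14.2 TMM-scaled CPM in E861A and 11.8, 11.2 and 11.0 in WT, with overlap by 1 library. *Pnpt1* and *Supv3l1*, the degrading exonuclease and helicase, had log2 fold changes of 0.044 (adjusted p = 0.87) and -0.074 (adjusted p = 0.776).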

How the data were processed

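RNA from whole brain of 6 mice was depleted of ribosomal RNA and sequenced as 75-base read pairs from a stranded kit in 1 run. The authors trimmed reads with Trimmomatic 0.36, aligned them with STAR 2.5.2a to NCBIM37 (mm9) and deposited raw counts per gene, per library, without normalization. The authors' CPM tables and their own comparison (fold changes, average levels and false discovery rates) were not used. All 37310 gene identifiers and all 37 mitochondrial symbols matched the GENCODE vM1 annotation of NCBIM37. The members and gene lists were chosen with earlier results of these data known.

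Shares, levels per kilobase, the CPM filter and the CPM of nuclear genes annotated as rRNA used the column totals. Marker sums and the CPM of single genes compared between genotypes were TMM-scaled. Counts were tested in R 4.3.3 with edgeR 4.0.16 (quasi-likelihood, TMM scaling, a minimum CPM of 2 in all 3 libraries of a genotype, Benjamini-Hochberg adjustment over 13649 genes), after the script was tested on simulated data. Library totals of 26853488 to 38076753 made counting error small for the 9 rRNA and protein-coding genes with at least 30325 counts, and not for the tRNAs or the other 6 protein-coding genes. Shares and ratios were compared by exact two-sided permutation tests over libraries, enumerated in Python 3.11.15 and adjusted over 22 measures. Copies of mitochondrial DNA in the nuclear genome were found with BLAST 2.17.0 (megablast) and by exact search of 75-base and 150-base windows. Named genes were all protein-coding and rRNA members, the tRNAs that passed the filter, 7 factors of mitochondrial RNA metabolism and, in each nuclear subunit list, the gene with the smallest adjusted p. *mt-Tc*, *mt-Tl1*, *mt-Tg*, *mt-Tn* and the tRNAs at 0 were named after their values were seen. Marker symbols *Lhb* and *Hbb-b1* had no match.

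Deviations from genotype means correlated across genes with r = 0.221, 0.329 and 0.112 for libraries of the same replicate number. For libraries of different number r was -0.255 to 0.0523. No sample label says that same-numbered animals are paired, so pairing by number is an assumption taken from these same data. What same-numbered animals share, if anything, is not stated. Alternatives were DESeq2 1.42.0, the likelihood ratio test, other scaling factors and filters, other denominators, the replicate block and the omission of each library.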

Additional observations from a re-analysis of the deposited data

How the results depend on the processing

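Of 375 alternative values, 361 kept their direction and their side of the threshold or moved by less than 1 SD. The 361 include the paired differences of shares and ratios, which equal the main values by construction. They also include changes of sign, such as the mitochondrial share from -0.0492 to 0.663 points without E861A replicate 1. For shares and ratios the side of the threshold was fixed in advance, since the exact permutation p cannot fall below 0.1. The number 361 is therefore no measure of how firm these values are. No mitochondrial gene was called in any of 16 fits, and the smallest adjusted p was 0.122, for *mt-Nd2* without a filter. All 7 mRNAs had a negative log2 fold change under every scaling and filter, and 5 of 7 without E861A replicate 1. The mRNA share of mitochondrial counts was -0.00453 points different once the rRNAs were left out of the total, since mRNAs then make up nearly all of it. The log2 ratio of mRNA to rRNA, added after seeing the data, was -0.0944 with *mt-Rnr1* alone as rRNA. The replicate block changed no call among the mitochondrial genes, the nuclear subunits or the listed factors of mitochondrial gene expression. Over all genes it raised the calls from 69 to 158, with 1 astrocyte and 1 choroid plexus marker among them. The mean difference in mitochondrial share was -0.0492 points in the paired comparison too, since pairing cannot change a mean difference (exact sign-flip p = 1).

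Leaving out 1 library turned the sign of 7 log2 fold changes, none of them called: *mt-Rnr1* from -0.0971 to 0.047, *mt-Rnr2* from -0.0524 to 0.135, *mt-Co1* from -0.119 to 0.0171, *mt-Nd5* from -0.143 to 0.0431, *mt-Tv* from -0.333 to 0.252, *mt-Tm* from -0.177 to 0.159 and *mt-Tp* from -0.308 to 0.222. The difference in mitochondrial share went from -0.721 points without E861A replicate 3 to 0.663 without E861A replicate 1. Low counts limit the tRNAs, of which 21 of 22 are shorter than a read and 5 lie inside the chromosome 1 copy. Copies in the nuclear genome limit 6 of the 13 mRNAs.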
